A study of Mus musculus with 6 samples.

Results

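The integrin subunits described here are 10 genes chosen by name from the 41449 rows of the expression table: the alpha subunits Itga3, Itga5, Itga6, Itgav and Itga9 and the beta subunits Itgb1, Itgb3, Itgb4, Itgb5 and Itgb8. RNA was measured by sequencing in whole lenses of 2-month-old mice, in 3 libraries of wild-type mice (WT, strain C57BL/6) and 3 of mice with a conditional knockout of fibronectin (FNcKO, mixed from C57BL/6, 129 and FVB/N), with 2 lenses in each library. The labels call the libraries of a genotype biological replicates. They do not say which Cre line deleted fibronectin, in which cells it acts, or whether the WT mice carried floxed alleles or Cre. Strain divides the libraries exactly as genotype does, so every difference below is between genotype and strain background together and the 2 cannot be told apart. The series asks what fibronectin does in the lens after birth.

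Integrins are cell surface receptors made of 1 alpha and 1 beta subunit, which join the extracellular matrix outside the cell to the actin or keratin cytoskeleton inside it. The pair decides the ligand: alpha3 and alpha6 with beta1 bind laminins, alpha6 with beta4 anchors hemidesmosomes, alpha5 with beta1 is the classical fibronectin receptor, and alpha-v pairs with several beta subunits to bind proteins that carry the RGD peptide, among them fibronectin, vitronectin and the latent form of TGF-beta. Lens cells rest on the lens capsule, a thick basement membrane of laminins and collagen IV, and laminin-binding integrins are known to be needed for the integrity of the lens.

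The lens RNA of both genotypes was that of a tissue with abundant Itgb5, Itga6 and Itgb1, intermediate Itgav, Itga3 and Itgb8, little Itga5, and Itga9, Itgb4 and Itgb3 near the limit of detection. None of the 6 subunits that could be tested passed the test between genotypes (limma on log2(FPKM + 1), adjusted p from 0.324 to 0.91), where 1.89% of all 10149 genes tested did. Of the same 6, 0 had an unadjusted p under 0.05 in limma, against 18.1% of all genes tested. The median log2 change of the 6 was 0.04, against -0.04 over all genes tested. Levels are in FPKM, which scales fragments by transcript length and library depth, so they may be compared between genes. The test took genes averaging 1 FPKM or more, and 4 of the 10 subunits lay below that.

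Itgb5 and Itgb8 both pair with alpha-v, and their start regions are shown because their RNA levels lie far apart, at means of 37.1 and 1.61 FPKM over the 6 libraries. The 250 bases before the start of each gene, which is also the start in the expression table, are from RefSeq (GRCm38.p6) and lie at chr16:33829415-33829664 on the plus strand for Itgb5 and at chr12:119238277-119238526 on the minus strand for Itgb8. Capitals mark the GC box GGGCGG on either strand, the sequence recognised by the transcription factor Sp1.
Itgb5: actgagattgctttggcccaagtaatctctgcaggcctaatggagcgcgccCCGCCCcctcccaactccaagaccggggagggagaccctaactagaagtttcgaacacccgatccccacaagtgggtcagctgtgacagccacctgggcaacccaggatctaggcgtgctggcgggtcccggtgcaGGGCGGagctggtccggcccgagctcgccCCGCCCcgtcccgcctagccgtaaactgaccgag
Itgb8: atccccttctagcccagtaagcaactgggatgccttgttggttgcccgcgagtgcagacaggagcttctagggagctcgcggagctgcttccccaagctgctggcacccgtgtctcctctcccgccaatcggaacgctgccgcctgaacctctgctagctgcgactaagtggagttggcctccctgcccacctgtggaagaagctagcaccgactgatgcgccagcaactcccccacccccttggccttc
The Itgb5 window holds 3 matches and the Itgb8 window 0, while 32.7% of 32851 promoter windows of the same length hold at least 1. The GC content is 65.2% for Itgb5 and 62.4% for Itgb8, against a median of 52.4%. Neither window holds TATAAA, which 12.4% of all windows do. RefSeq's table had windows for 7 of the 10 subunits, of which 4 began at the start given in the expression table. The other 2 of those 4, Itgb1 and Itga5, hold 1 and 2 GC boxes at mean levels of 19.1 and 0.505 FPKM. At other starts, the Itgav window holds 0 at 7.29 FPKM, 2 Itga3 windows hold 3 and 1 at 4.19 FPKM, and the Itga9 window holds 0 at 0.0977 FPKM. The number of GC boxes did not rise steadily with the level in these windows, and no relation between them was tested. On either strand CCAAT has 1 match in the Itgb8 window and 0 in that of Itgb5, against 33.8% of all windows with a match.

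The targeted gene, Fn1 (chromosome 1, 71585473 to 71653234), measured 0.135, 0.188 and 0.253 FPKM in the WT libraries (replicates 1 to 3) and 0.128, 0.0482 and 0.0942 FPKM in the FNcKO libraries. All FNcKO values were under the lowest WT value (exact two-sided permutation p = 0.1, the smallest that 3 against 3 allows). They rest on an estimated 17, 21 and 26 fragments (WT) and 11, 4 and 7 (FNcKO), and cover the whole gene, so the deleted part alone cannot be read from them. The WT libraries hold an estimated 12500000 to 14900000 fragments each, and the FNcKO libraries 9200000 to 10100000. Fiber markers summed to between 13631 and 14855 FPKM in all 6 libraries. The summed level of 10 epithelial markers ran from 1365 to 1420 FPKM in WT and from 1450 to 1669 FPKM in FNcKO, but 5 members had a log2 change above 0 and 5 below, with a median of -0.00. Most of the rise in that sum was Cd24a, at means of 838 and 1008 FPKM (limma adjusted p = 0.161), and 2 members, Slc7a5 and Epha2, passed as higher. The sum of 7 ciliary body and iris markers ran from 24.6 to 34.5 FPKM in WT and from 54.7 to 72.9 FPKM in FNcKO. The highest of these markers was Optc, at means of 18.3 FPKM in WT and 42.9 FPKM in FNcKO, which did not pass (limma adjusted p = 0.0682). Of the 5 that were tested, 4 had a log2 change above 0 and 1 below, and Aqp1 passed as higher (log2 change 1.39, limma adjusted p = 0.0432). The sum of 7 pigment cell markers ran from 11.1 to 18.7 and from 6.67 to 8.46 FPKM. Of 7 tested photoreceptor markers, Gnat1 passed as lower (log2 change -1.05, limma adjusted p = 0.0215, no value in WT replicate 2). Corneal markers summed to 25.7 to 30.7 FPKM in WT and 13.6 to 43.4 in FNcKO, nearly all of it Aldh3a1, with Krt12 listed at 0 in every library. Endothelial markers summed to 1.1 to 1.35 and 1.28 to 1.82 FPKM, nearly all Egfl7, which was higher in each FNcKO library (limma adjusted p = 0.292), while Cldn5, Tie1 and Cdh5 were listed at 0. Platelet markers summed to 0.548 to 1.25 and 0.094 to 0.802 FPKM, mainly Pf4 and Gp1ba, with Ppbp and Gp9 listed at 0. In whole lenses, fewer cells of a type and less RNA per cell cannot be told apart.

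Of the laminin-binding subunits, Itga6 was the most abundant alpha subunit. The gene (chromosome 2, 71786886 to 71858427, GRCm38) measured 25.8, 28.4 and 27.2 FPKM in the WT libraries (replicates 1 to 3) and 24.5, 29.8 and 25.5 FPKM in the FNcKO libraries. The groups overlapped, with FNcKO replicate 2 the highest and FNcKO replicate 1 the lowest of the 6 libraries. The means were 27.1 ± 1.31 and 26.6 ± 2.8 FPKM (n = 3 each, SD), and the log2 change was -0.03 (SE 0.09, adjusted p = 0.895). Its 95% interval runs from 0.839-fold to 1.14-fold on the FPKM + 1 scale.

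Itga3, the other laminin-binding alpha subunit (chromosome 11, 95044475 to 95076811), measured 3.35, 4.41 and 4.21 FPKM in the WT libraries (replicates 1 to 3) and 3.81, 4.8 and 4.52 FPKM in the FNcKO libraries. The values interleaved between genotypes, and replicate 1 was the lowest library of each. The means were 3.99 ± 0.561 and 4.38 ± 0.514 FPKM (n = 3 each, SD; log2 change 0.11, SE 0.12, adjusted p = 0.672). The interval of the change, 0.887-fold to 1.31-fold, was wider than that of Itga6. Spread between the libraries was 14.1% of the mean in WT and 11.7% in FNcKO, against an error of about 6.17% and 6.94% from counting fragments alone.

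Itgb4, the partner of alpha6 in hemidesmosomes (chromosome 11, 115974725 to 116008412), was nearly absent. It measured 0.0318, 0.0355 and 0.0765 FPKM in the WT libraries (replicates 1 to 3) and 0.0787, 0.0637 and 0.0334 FPKM in the FNcKO libraries, an estimated 3, 3 and 6 against 5, 4 and 2 fragments. The genotypes overlapped (exact two-sided permutation p = 0.6). Itgb4 RNA was between 0.00169 and 0.00404 times that of Itgb1. One end of the locus overlaps Galk1 (mean 3.24 FPKM), and B230344G16Rik, at 0.427 to 0.689 FPKM, lies inside the locus. The use of strand in counting was not given in the sources used here, so reads of these genes and of Itgb4 could be mixed.

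Itgb1, which pairs with alpha3, alpha5, alpha6, alpha9 and alpha-v and so serves both ligand classes, varied least of the 10 subunits. The gene (chromosome 8, 128685654 to 128733579) measured 18.9, 18.5 and 19.5 FPKM in the WT libraries (replicates 1 to 3) and 19.5, 19.6 and 18.5 FPKM in the FNcKO libraries. All 6 libraries lay within 18.5 to 19.6 FPKM, with both genotypes covering that range. The means were 19 ± 0.51 and 19.2 ± 0.589 FPKM (n = 3 each, SD; log2 change 0.02, SE 0.06, adjusted p = 0.91). The 95% interval of the log2 change ran from -0.12 to 0.16. The spread between libraries was 2.69% of the mean in WT and 3.07% in FNcKO, below the counting errors of about 3.19% and 3.73%.

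**Figure D1:**
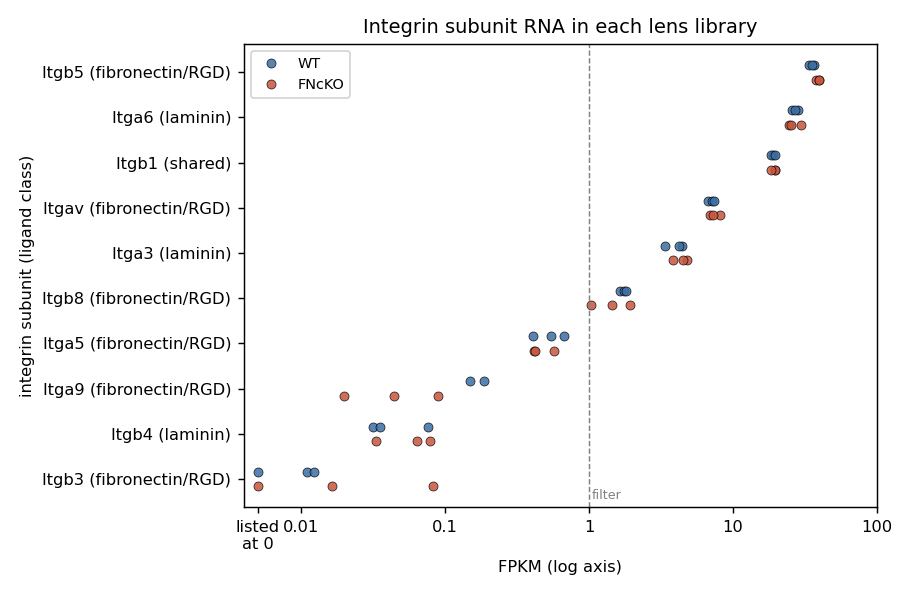
FPKM of the 10 integrin subunits (log axis, values of 0 drawn at the left edge) in each of the 3 WT and 3 FNcKO libraries, ordered by mean level, with the ligand class of each subunit in brackets and the filter of 1 FPKM as a dashed line. From Itgb5 at 33.7 to 39.7 FPKM down to Itgb3 at 0 to 0.0828 FPKM, WT and FNcKO points sit close together for the subunits above the filter.

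Among the fibronectin-binding and RGD-binding subunits, Itgav led the alpha chains. The gene (chromosome 2, 83724108 to 83806917) measured 6.76, 7.12 and 7.39 FPKM in the WT libraries (replicates 1 to 3) and 6.97, 8.2 and 7.32 FPKM in the FNcKO libraries. FNcKO replicate 2 lay above the other libraries, and the remaining values overlapped. The means were 7.09 ± 0.316 and 7.49 ± 0.634 FPKM (n = 3 each, SD; log2 change 0.07, SE 0.08, adjusted p = 0.69), with an interval from 0.922-fold to 1.19-fold.

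Itga5, the alpha chain of the classical fibronectin receptor (chromosome 15, 103344286 to 103366791), was low in every library. It measured 0.673, 0.409 and 0.545 FPKM in the WT libraries (replicates 1 to 3) and 0.413, 0.571 and 0.421 FPKM in the FNcKO libraries. These rest on between 17 and 44 fragments a library, and the genotypes overlapped (exact two-sided permutation p = 0.7). Itga5 RNA was 0.0574 to 0.0996 times that of Itgav in the same library. Spread between the libraries was 24.4% of the mean in WT and 19% in FNcKO, against counting errors of about 17.5% and 22.3%. With 3 against 3 libraries the permutation test cannot go below p = 0.1, so it could not pass a change of any size.

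Itga9, whose pair with beta1 binds tenascin-C and the alternatively spliced EIIIA segment of fibronectin (chromosome 9, 118606709 to 118901003), has no value in WT replicate 2, where 3578 rows are empty. WT replicates 1 and 3 had 0.186 and 0.149 FPKM, and the FNcKO libraries had 0.0444, 0.0898 and 0.0198 FPKM. Both WT values lay above all FNcKO values, a ratio of means of 3.26 (exact two-sided permutation p = 0.2, the smallest that 2 against 3 allows). The estimated fragments behind them are 19 and 13 (WT) and 3, 6 and 1 (FNcKO). Without a filter on low values, limma gave a log2 change of -0.15 with adjusted p = 0.296. Gm10157, at 9.49 to 11.8 FPKM, lies inside the Itga9 locus, and without knowledge of strand its reads and those of Itga9 could be mixed.

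Itgb5, which pairs with alpha-v to make a receptor known best for vitronectin, had the highest level of all 10 subunits. The gene (chromosome 16, 33829665 to 33949338) measured 33.7, 36.7 and 35.6 FPKM in the WT libraries (replicates 1 to 3) and 37.5, 39.5 and 39.7 FPKM in the FNcKO libraries. All 3 FNcKO values lay above all 3 WT values. The means were 35.3 ± 1.47 and 38.9 ± 1.25 FPKM (n = 3 each, SD), a ratio of 1.1, with a log2 change of 0.14 (SE 0.06, adjusted p = 0.324) and an interval from 0.988-fold to 1.22-fold. The difference did not pass the test. Groups that do not overlap were found for 1 of the 6 tested subunits, where 25.6% of all genes tested had them and 9.31% had all FNcKO values above WT. The ciliary body and iris sum and the epithelial marker Cd24a also lay higher in every FNcKO library, while 5 of the 10 epithelial markers had a change below 0. Their part in the level of Itgb5 was not tested.

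Itgb8, whose pair with alpha-v binds and activates latent TGF-beta (chromosome 12, 119162803 to 119238276), measured 1.64, 1.76 and 1.82 FPKM in the WT libraries (replicates 1 to 3) and 1.04, 1.44 and 1.94 FPKM in the FNcKO libraries. The WT libraries were close together, while FNcKO held both the lowest and the highest value. The means were 1.74 ± 0.0907 and 1.47 ± 0.45 FPKM (n = 3 each, SD; log2 change -0.16, SE 0.14, adjusted p = 0.606), and the interval, from 0.702-fold to 1.14-fold, was the widest of the 6. In FNcKO the spread was 30.5% of the mean, against a counting error of about 9.13%. In WT the spread was 5.22%, below the counting error of about 7.1%. The difference in spread between genotypes was not tested. With 1 library left out the change ran from -0.29 without FNcKO replicate 3 to -0.03 without FNcKO replicate 1, and a pseudocount of 0.1 gave -0.26; none of these passed.

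Itgb3, the partner of alpha-v in the vitronectin and fibronectin receptor of many vascular and bone cells and of Itga2b on platelets (chromosome 11, 104608000 to 104670476), measured 0.011, 0.0123 and 0 FPKM in the WT libraries (replicates 1 to 3) and 0.0164, 0.0828 and 0 FPKM in the FNcKO libraries. These are an estimated 1, 1 and 0 fragments (WT) against 1, 5 and 0 (FNcKO). No difference could be seen at this depth (exact two-sided permutation p = 0.5). Its platelet partner Itga2b lay between 0.0565 and 0.171 FPKM.

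**Figure D2:**
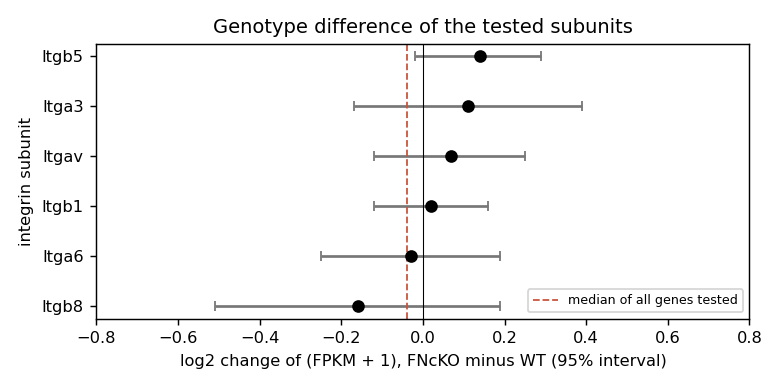
Log2 change of FPKM + 1 between FNcKO and WT for the 6 tested subunits, with 95% intervals from limma; the dashed line is the median of all genes tested. Points run from -0.16 for Itgb8 to 0.14 for Itgb5, and all 6 intervals include 0.

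By level, the order over all 6 libraries was Itgb5, Itga6, Itgb1, Itgav, Itga3, Itgb8, Itga5, Itga9, Itgb4 and Itgb3. Each neighbour in this order was separated from the next in both genotypes down to Itga9, since the lowest library of the higher subunit exceeded the highest of the lower one. Itgb5 exceeded Itga6 by a ratio of means of 1.38, Itga6 exceeded Itgb1 by 1.41 and Itgb1 exceeded Itgav by 2.62. In FNcKO the values of Itga9 and Itgb4, and those of Itgb4 and Itgb3, overlapped. Among all genes tested, 90.9% had a lower mean than Itgb5, 88.3% than Itga6 and 84.8% than Itgb1, but 17.5% than Itgb8.

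The balance of the ligand classes was similar in all libraries. Itga6 made up 67.6% to 70.5% of the summed FPKM of Itga3, Itga5, Itga6 and Itgav, and Itgav 17.6% to 19.5%. On the beta side, Itgb5 made up 62.2% to 66% of the sum of Itgb1, Itgb3, Itgb4, Itgb5 and Itgb8, and Itgb1 30.8% to 34.7%. The fibronectin-binding alpha chains Itga5, Itgav and Itga9 together had 0.261 and 0.257 times the FPKM of the laminin-binding chains Itga3 and Itga6 in WT replicates 1 and 3, and 0.263, 0.256 and 0.258 times in FNcKO replicates 1 to 3. The means were 0.259 ± 0.00291 (SD, n = 2) and 0.259 ± 0.00322 (SD, n = 3). With Itga9 left out, so that all 6 libraries count, they were 0.246 ± 0.0142 and 0.257 ± 0.00365 (n = 3 each, SD). WT replicate 2 was then the lowest library, at 0.229.

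Within a library, pairs of subunits could be compared free of any scaling between libraries. Itgav stood at 0.262, 0.251 and 0.272 times Itga6 in WT and at 0.285, 0.275 and 0.287 times in FNcKO replicates 1 to 3. The FNcKO ratios all lay above the WT ratios, by 0.282 ± 0.00599 against 0.261 ± 0.0105 (n = 3 each, SD). The ratio of Itga3 to Itga6 was likewise 0.13, 0.155 and 0.155 in WT and 0.156, 0.161 and 0.177 in FNcKO, where the lowest FNcKO and the highest WT values nearly met. The ratio of Itgb5 to Itgb1 overlapped, with WT at 1.86 ± 0.103 and FNcKO at 2.03 ± 0.111 (n = 3 each, SD). The ratios to Itga6 share their denominator and so are not independent of each other. Among single genes tested, 25.6% had groups that do not overlap. All ratios here are descriptions, to which no test was applied.

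**Figure D3:**
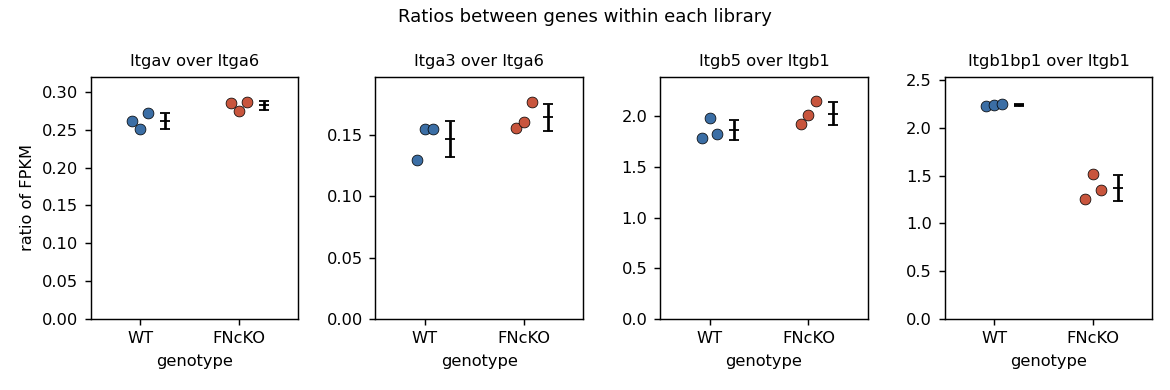
Ratio of FPKM between 2 genes within each library (points), with the mean and SD of each genotype beside them; all axes start at 0. Ratios among subunits lie close together between genotypes, while the ratio of Itgb1bp1 to Itgb1 is 2.24 in WT and 1.37 in FNcKO.

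No other integrin subunit reached 1 FPKM. Of 17 further integrin genes in the table, Itga2, a collagen-binding alpha chain, was the highest at 0.353, 0.445 and 0.553 FPKM in WT and 0.546, 0.622 and 0.54 FPKM in FNcKO replicates 1 to 3. The genotypes overlapped (exact two-sided permutation p = 0.3). Itga7, a laminin-binding chain of muscle, followed at 0.0693 to 0.232 FPKM. Itga4 and Itga8, which bind fibronectin as pairs with beta1, lay at 0.0384 to 0.154 and 0.0441 to 0.0986 FPKM. The beta2 chain of leukocytes, Itgb2, stayed at or below 0.108 FPKM, and Itgad and Itgb2l were listed at 0 in every library.

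The genes that switch integrins on and off held 1 change. Itgb1bp1 (also called ICAP1) binds the cytoplasmic tail of beta1 and competes there with the activator talin. It measured 42.1, 41.5 and 43.8 FPKM in the WT libraries (replicates 1 to 3) and 24.3, 29.8 and 25 FPKM in the FNcKO libraries, which did not overlap. It fell by 0.67 on the log2 scale (SE 0.09, adjusted p = 0.0328), and was the 1 call among 10 tested activators and inhibitors, of which 0 rose (1.03% of all genes tested were called lower and 0.857% higher). Against its binding partner, Itgb1bp1 RNA was 2.23, 2.24 and 2.25 times that of Itgb1 in WT and 1.25, 1.52 and 1.35 times in FNcKO, a ratio examined after the values were seen. Itgb1bp1 missed the threshold with any library but FNcKO replicate 2 left out (adjusted p from 0.0183 to 0.136 over the 6), without a filter on low values (0.0589), after quantile normalization (0.0551) and with both same-total scalings, where its change shrank to -0.43 and -0.26. Fermt2, the kindlin of adherent cells, stood at 7.68 ± 0.522 and 6.65 ± 1.41 FPKM (n = 3 each, SD; limma adjusted p = 0.52).

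Of 13 tested trafficking and tetraspanin partners, 1 fell and 0 rose, where 1.03% of all genes tested were called lower and 0.857% higher. Emp2, a membrane protein known to regulate the surface level of some integrins, measured 12.4, 11.7 and 12.5 FPKM in the WT libraries (replicates 1 to 3) and 8.4, 9.21 and 8.76 FPKM in the FNcKO libraries. The groups were apart, and it fell by 0.43 on the log2 scale (SE 0.06, adjusted p = 0.0344). It missed the threshold with any 1 library left out (adjusted p from 0.0699 to 0.15) or without a filter on low values (0.0621), and its change was -0.20 and -0.04 with the same-total scalings. Cd81, a tetraspanin, stood at 23.9 ± 0.555 and 23.7 ± 3.12 FPKM (n = 3 each, SD; limma adjusted p = 0.952). Cd151, the tetraspanin that associates with laminin-binding integrins, was at 5.66 ± 0.413 and 6.58 ± 0.846 FPKM (n = 3 each, SD; limma adjusted p = 0.42).

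Of 17 tested adaptors and kinases at the integrin tail, 1 rose and 0 fell, against the same 0.857% and 1.03% of all genes. Lims2 (PINCH2), which joins integrin-linked kinase to its partners, measured 0.0414, 0.417 and 0.399 FPKM in the WT libraries (replicates 1 to 3) and 5.97, 4.49 and 3.39 FPKM in the FNcKO libraries (log2 change 2.12, SE 0.21, adjusted p = 0.0125). It missed the threshold without any 1 of the WT libraries or FNcKO replicate 2 (adjusted p from 0.0247 to 0.0634 over the 6). Lims2 passed the filter, at a mean of 2.45 FPKM, through the FNcKO libraries alone, as all WT values lay under 1 FPKM. With a filter at 3 FPKM it was not tested. The size of its change depends on the pseudocount, with 3.79 on the log2 scale for a pseudocount of 0.1 and a ratio of mean FPKM of 16.2. Its kinase Ilk stood at 13.5 ± 0.997 and 14.8 ± 2.3 FPKM (n = 3 each, SD; limma adjusted p = 0.684). Over this list the log2 changes had a median of 0.06, and those of the activator and trafficking lists were both -0.02. Beside the changes of Itgb1bp1, Emp2 and Lims2, the summed level of 6 fibroblast and mesenchyme markers was lower in FNcKO, at 74.2 to 87.3 against 102 to 114 FPKM, most of it Acta2 (means 70.8 and 99.3 FPKM). The 3 of these markers that were tested gave 1 log2 change above 0 and 2 below, with a median of -0.08. Acta2, which was lower, and the marker above 0 each had an unadjusted p under 0.05 in limma. The pigment cell sum and Gnat1 were also lower and the ciliary body and iris sum higher. The part of these markers in the 3 changes was not tested.

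**Figure D4:**
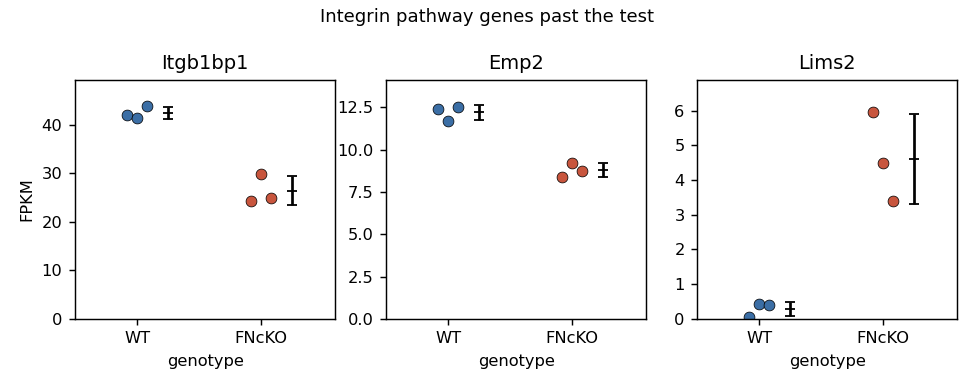
FPKM of the 3 integrin pathway genes that passed the test, in each WT and FNcKO library (points), with mean and SD beside them and axes from 0. Itgb1bp1 and Emp2 lie lower and Lims2 higher in all 3 FNcKO libraries.

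The ligands of both classes held no call. Of 16 tested laminins and other basement membrane genes, 0 passed limma's test, with a median log2 change of 0.05. An unadjusted p under 0.05 was found for 6 of the 16, a larger share than the 18.1% of all genes tested. The list was chosen with earlier results of these data known. Lamb1, a laminin beta chain, measured 8.46, 7.91 and 7.59 FPKM in the WT libraries (replicates 1 to 3) and 10.3, 13.2 and 11.1 FPKM in the FNcKO libraries (adjusted p = 0.0829, or 0.0498 with median-ratio scaling). Hspg2 (perlecan) stood at 28.2 ± 1.66 and 36.6 ± 3.53 FPKM (n = 3 each, SD; limma adjusted p = 0.127). Of 10 tested ligands of the fibronectin-binding and RGD integrins, 0 passed limma's test and 2 had an unadjusted p under 0.05, a share near that 18.1%, with a median of 0.06. These were Ctgf, a matricellular protein, at 9.47 ± 0.737 and 7.14 ± 0.515 FPKM (adjusted p = 0.101), and Fbn1 (fibrillin-1), at 3.18 ± 0.849 and 5.37 ± 1.26 FPKM (n = 3 each, SD; limma adjusted p = 0.204). Groups overlapped for none of these 4 genes, which were named because they had the smallest p of their lists. Of all genes tested, 25.6% had groups that do not overlap. Of the hemidesmosome partners, 3 were tested and 0 passed limma's test, with 1 at an unadjusted p under 0.05: Dst, a plakin, at 24.8 ± 1.42 and 33.2 ± 3.58 FPKM (n = 3 each, SD; limma adjusted p = 0.109, or 0.0277 with median-ratio scaling).

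The genes whose profile over the 6 libraries was most like those of the 2 most abundant subunits were sought among 2344 genes averaging 10 FPKM or more. For Itgb5 they were H1f0, Gm12537 and Mpp6 (Pearson r = 0.987, 0.979 and 0.971 over 6 libraries). For Itga6 they were Pnrc2, Crim1 and Gm4963 (0.995, 0.994 and 0.994). These genes were picked for the highest of 2344 correlations over only 6 libraries, and picking the highest favours a large r. Values of a library also share its depth and scaling, so these correlations are descriptions.

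For Itga3, Itga6, Itgav, Itgb1 and Itgb5, the genotype difference moved less with 1 library left out than with the way libraries were scaled to each other. Over 15 alternatives, or 14 for Itgb8, 0 gave a call for any of the 6 subunits by limma, and the lowest adjusted p was 0.141, for Itgb5. Scaling every library to the same FPKM total shifted the median change over all genes, on the log2 scale, to 0.15, or to 0.29 with crystallins left out of the total, and the subunits moved with it. Relative to the median of all genes, Itgb5 then stood 0.23 and 0.26 higher, against 0.18 as deposited, and Itgb1 0.10 and 0.13, against 0.06. Of the 192 genes called as deposited, 45.3% were higher in FNcKO. The share was 57.9% with median-ratio scaling, 58.4% after quantile normalization, and 70.8% and 76.7% with the same-total scalings.

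**Figure D5:**
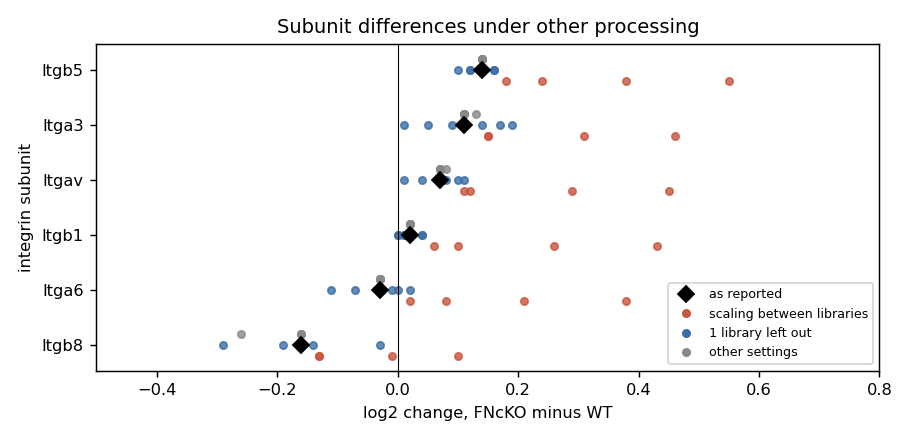
Log2 change between FNcKO and WT of the 6 tested subunits as reported (diamond), with 1 library left out, with 4 other scalings between libraries, and with other settings. The scalings reach up to 0.55 for Itgb5 and 0.43 for Itgb1, while leaving out 1 library keeps Itgb1 between 0.00 and 0.04.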

How the data were processed

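Lens RNA of 3 WT and 3 FNcKO libraries was analysed from the FPKM values that the authors computed and deposited. The tools named in the submitters' processing notes are Cuffdiff 2.2.1, TopHat2 2.1.0, cutadapt 1.12 and FastQC, with builds mm10 and GRCm38.p5. Annotation, strand use and scaling between libraries were not given in the sources used here. WT replicate 2 has no value in 3578 rows (8.63%), and 1 unreadable value was treated as missing. Such genes, among them Itga9, were fitted on the other libraries.

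Genes averaging 1 FPKM or more (10149) were compared as log2(FPKM + 1) in R 4.3.3 with limma 3.58.1 (two-sided moderated test with a mean-variance trend, Benjamini-Hochberg over all genes tested, threshold 0.05). Log2 changes on this scale understate those of low genes. Subunits below the filter had an exact permutation test in scipy 1.17.1. On simulated data for 9407 genes the fit recovered 97.4%, 98.2% and 100% of genes changed 1.5-fold, 2-fold and 4-fold, with 10 false calls. The folds were on the FPKM + 1 scale. The simulated noise was normal, with a spread set by the mean level alone, no missing values and no differences between whole libraries. Real genes of a level differ in spread, so these shares check the fit and do not give its power for the subunits. Fragment numbers are estimates: FPKM times length steps by 1 fragment among genes with 1 GENCODE transcript of at least 1500 bases, and 56.3% to 59.9% of values between 1 and 5 fragments lay within 0.15 of a whole number (30% would by chance at a depth fixed beforehand, and more after a search). Between 48 and 80 values a library lay within 0.05 of 1 fragment, against 2 to 13 at double that depth; an error in the depth would change the fragment numbers and counting errors. They enter no test, and errors from them cover counting only.

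The rule for naming genes took Fn1, the 10 subunits and the 3 most similar profiles. Of each pathway list it took every gene that passed, or otherwise the 2 of smallest p. The cell type markers it also took are given mostly as sums, and those that passed are named. Other genes named were chosen after their values were seen. Members and lists were chosen with earlier results of these data known. The alternatives were another pseudocount (0.1), filters, scalings, no trend, a replicate block and each library left out.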

Additional observations from a re-analysis of the deposited data

How the results depend on the processing

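The count of 192 genes past the limma threshold became 101 without a filter on low values, 89 with the same FPKM total, 86 with that total taken without crystallins, and 37 to 117 with 1 library left out (the fewest without WT replicate 1, the most without FNcKO replicate 1). With the replicate block it was 14. The numbers in the sample titles are not stated to pair lenses, and same-numbered libraries did not deviate together (correlations of -0.027, -0.055 and -0.046 over 9407 genes), so this fit is given here only, and none of the 6 tested subunits passed in it. The sign of Itga6 turned with median-ratio scaling (0.02), the same total (0.21), the same total without crystallins (0.38), quantile normalization (0.08), and without WT replicate 2 (0.000602) or FNcKO replicate 1 (0.02); over the libraries left out it ran from -0.11 to 0.02. Itgb8 turned to 0.10 and Ctgf to 0.02 with the same total without crystallins. Itga3, Itgav, Itgb1 and Itgb5 stayed above 0 under all 15 alternatives. With a filter at 3 FPKM Itgb8 and Lims2 were not tested. The ratio of fibronectin-binding to laminin-binding alpha subunits went from 0.259 to 0.246 in WT with Itga9 left out, which lets WT replicate 2 count, and from 0.259 to 0.282 in FNcKO with Itgav over Itga6 alone. Depth limits Itgb3, Itgb4, Itga9 and Itga5, which rest on 0 to 44 fragments a library.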

Other observations

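Outside the subunits, the most abundant listed partner was Bsg (basigin, an immunoglobulin-like membrane protein), with WT at 133 ± 4.65 and FNcKO at 125 ± 3.71 FPKM (n = 3 each, SD; limma adjusted p = 0.574). Among ligands in the capsule, Col4a1 stood at 279 ± 9.4 and 263 ± 7.4 FPKM (adjusted p = 0.555) and Nid1, a nidogen, at 115 ± 2.87 and 116 ± 7.96 FPKM (n = 3 each, SD; limma adjusted p = 0.956). Mfge8, a secreted RGD ligand of alpha-v integrins, was at 14.4 ± 0.574 and 15.9 ± 1.7 FPKM (n = 3 each, SD; limma adjusted p = 0.519).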
